A study of Mus musculus with 16 samples.

Results

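The lysyl oxidase family consists of 5 genes in the mouse, Lox, Loxl1, Loxl2, Loxl3 and Loxl4, and its members were taken by gene symbol from a count table of 55573 genes. All 5 were among the 16857 genes tested. The RNA came from the heart apex of 16 male wild-type mice, 4 in each of 4 groups, and each library was 1 mouse. Every mouse had been given an adeno-associated virus of serotype 9 at postnatal day 1. The virus AAV9-cTNT-CARDINAL carried the long noncoding RNA Cardinal (annotated as Gm12295), and AAV9-cTNT-GFP carried green fluorescent protein as the control. The cTNT promoter drives both inserts in cardiomyocytes, so no group was free of virus and other cell types were not the target of expression. Each vector group was divided into mice with transverse aortic constriction (TAC), which narrows the aorta and loads the left ventricle with pressure, and mice with sham surgery, and hearts were taken 4 weeks later. The groups are named by vector and surgery, as AAV9-GFP or AAV9-Cardinal followed by sham or TAC.

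Lysyl oxidases are copper-dependent enzymes of the extracellular matrix. They oxidize lysine and hydroxylysine side chains of collagens and elastin to aldehydes, which then condense into covalent crosslinks, and these crosslinks make collagen fibers stiff and resistant to degradation. In the heart the enzymes are made mainly by fibroblasts and vascular cells, and they are best known there from interstitial fibrosis. Lox and Loxl1 are secreted as proenzymes with a long propeptide, while Loxl2, Loxl3 and Loxl4 carry scavenger receptor cysteine-rich domains in its place.

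The part of the coding sequence that makes these genes a family is the catalytic domain. The following 30-base stretches are shown because they hold its 2 landmarks, and they were read on the coding strand from GENCODE M21 transcripts (GRCm38). In the first set, capitals mark the codons of the 3 histidines that bind copper.
Loxl1: catagctgtCACcaaCATtacCACagcatg
Loxl2: cacgactgcCACaggCACtacCACagcatg
Loxl3: catgagtgtCATgggCATtacCACagtatg
Loxl4: caccagtgcCACaggCACtacCACagcatc
In the second set, capitals mark the codon of the lysine that joins with a tyrosine to form the quinone cofactor.
Loxl1: gccgagggacacAAGgccagcttctgcctg
Loxl2: gctgagggccacAAGgccagcttctgcctg
Loxl3: gctgagggccacAAAgctagtttctgtcta
Loxl4: gccgagggacacAAGgccagcttctgtcta
The 10 amino acids encoded around the lysine were identical in every pair of members, Lox included, although the bases differed at 2 to 7 of 30 positions. Around the histidines, Lox and Loxl1 encoded the same 10 amino acids and differed at 1 base, and every other pair differed at 2 or 3 amino acids. The cofactor tyrosine lay 35 codons after the lysine in Lox and Loxl1 and 36 codons after it in Loxl2, Loxl3 and Loxl4. The coding sequences ranged from 411 codons in Lox to 776 in Loxl2. At a length of 50 bases, the length of the reads, Lox, Loxl1 and Loxl4 shared no stretch with any other annotated transcript.

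Levels are given as CPM, read counts scaled to a common library size with the trimmed mean of M values (TMM), from totals of 16441997 to 21904589 counts per mouse. A count of 3 corresponded to 0.126 to 0.195 CPM. The mitochondrial share was 30.3% to 34.0%. Gm12295, the gene carried by AAV9-Cardinal, was at 4.77 ± 1.03 CPM in AAV9-GFP sham and 4.88 ± 1.66 in AAV9-GFP TAC hearts (SD, n = 4), and at 31.0 ± 6.25 and 38.1 ± 37.3 in AAV9-Cardinal sham and TAC hearts. In AAV9-Cardinal TAC it stood at 93.9 CPM in replicate 1 and at 18.3 to 20.6 in the other 3 mice. Values without replicate 1 are given below for several members, for the ratio of Lox to the fibrillar collagens and for several gene lists. Cardiomyocyte markers summed to 27700 to 40000 CPM in all groups, so defining genes of heart muscle were present.

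All 5 lysyl oxidases rose under pressure overload in AAV9-GFP hearts. Lox rose 2.99-fold, Loxl2 2.84-fold, Loxl1 2.36-fold, Loxl4 1.89-fold and Loxl3 1.76-fold, and for each gene every TAC mouse was above every sham mouse, as was found for 10.1% of all genes. Of all 16857 genes, 8.49% were called higher in this comparison at an adjusted p under 0.05. The median log2 fold change of the 5 members was 1.24, and that of all genes tested was 0.00502. In AAV9-Cardinal hearts the 5 fold changes were smaller, and 3 of the 5, Lox, Loxl1 and Loxl2, passed the same threshold, against 3.1% of all genes called higher. In bulk tissue, fewer cells of a type and less RNA per cell cannot be told apart.

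**Figure D1:**
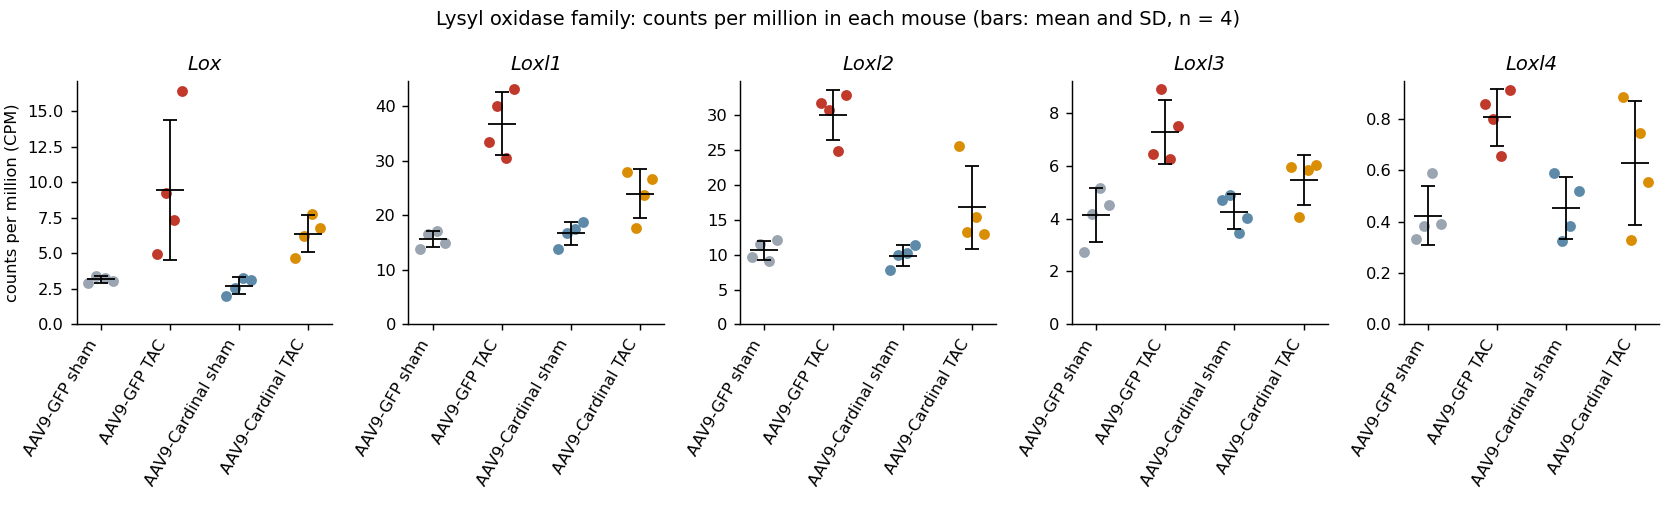
CPM of each family member (vertical axes, linear and starting at 0) in each of the 16 mice, by group. Points are mice and bars are the mean and SD of 4 mice. In AAV9-GFP TAC hearts Lox ranged from 4.93 to 16.4 CPM, and all 4 mice of that group were above the sham mice in every panel.

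Loxl1 encodes a lysyl oxidase known for its role in elastic fiber maintenance. It lies on the minus strand of chromosome 9 (GRCm38, chr9:58287738-58313186, ENSMUSG00000032334). In AAV9-GFP sham hearts it was at 13.9, 16.6, 17.2 and 14.9 CPM in replicates 1 to 4. In AAV9-GFP TAC hearts it was at 33.5, 40.0, 30.6 and 43.2 CPM in replicates 1, 3, 4 and 7. The lowest TAC mouse was thus well above the highest sham mouse, and the log2 fold change was 1.24 ± 0.143 (SE; edgeR adjusted p = 5.6e-05). In AAV9-Cardinal sham hearts Loxl1 was at 13.8, 16.7, 17.5 and 18.8 CPM, and in AAV9-Cardinal TAC hearts at 27.9, 17.7, 23.7 and 26.6 CPM in replicates 1, 4, 5 and 6. Here the groups overlapped, since TAC replicate 4 was below sham replicate 4. The log2 fold change was 0.53 ± 0.144 (edgeR adjusted p = 0.043), with an exact permutation p of 0.057. Without AAV9-Cardinal TAC replicate 1 it was 0.45 and no longer passed (edgeR adjusted p = 0.082). That call was kept in 6 of 16 fits with 1 mouse left out.

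Loxl2 encodes the member with a known role in crosslinking type IV collagen of basement membranes. It lies on the plus strand of chromosome 14 (GRCm38, chr14:69609068-69695834, ENSMUSG00000034205). It was at 9.70, 11.5, 9.16 and 12.1 CPM in AAV9-GFP sham hearts and at 31.8, 30.7, 24.9 and 32.9 CPM in AAV9-GFP TAC hearts. The groups were far apart, with a log2 fold change of 1.5 ± 0.189 (edgeR adjusted p = 0.0001). In AAV9-Cardinal sham hearts it was at 7.86, 9.94, 10.3 and 11.4 CPM. In AAV9-Cardinal TAC hearts it was at 25.6 CPM in replicate 1 and at 13.3, 15.4 and 13 CPM in replicates 4, 5 and 6. Replicate 1 was at the level of AAV9-GFP TAC hearts and the other 3 were just above the sham range. The log2 fold change was 0.78 ± 0.193 (edgeR adjusted p = 0.029), and without replicate 1 it was 0.50 (edgeR adjusted p = 0.033).

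The counts of Loxl2 carry an uncertainty of their own. Of its 50-base stretches, 42.9% were also found in Gm21451, an annotated unprocessed pseudogene on the same chromosome (chr14:69390854-69480287), and 5.94% in other genes. How reads with several matches were counted is not given in the sources used here. Gm21451 was at 2.50 ± 0.398 CPM in AAV9-GFP sham and 6.09 ± 0.782 CPM in AAV9-GFP TAC hearts, and at 2.03 ± 0.199 and 3.75 ± 1.57 CPM in the AAV9-Cardinal groups. Its log2 fold changes were 1.28 (edgeR adjusted p = 0.00083) and 0.88 (edgeR adjusted p = 0.032). With the counts of both genes summed, an alternative chosen after seeing the data, the log2 fold changes of Loxl2 were 1.46 and 0.80, and no call of the family changed.

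Lox encodes the founding enzyme of the family, which crosslinks fibrillar collagens and elastin. It lies on the minus strand of chromosome 18 (GRCm38, chr18:52516067-52529867, ENSMUSG00000024529). It was at 2.88, 3.41, 3.28 and 3.08 CPM in AAV9-GFP sham hearts, from 61 to 71 counts. In AAV9-GFP TAC hearts it was at 4.93, 9.23, 7.31 and 16.4 CPM, from 115 to 377 counts. Sham mice were close together and TAC mice were spread over a wide range, with replicate 7 highest and replicate 1 lowest. The log2 fold change was 1.58 ± 0.291 (edgeR adjusted p = 0.0018), and over the fits with 1 mouse left out it ranged from 1.18 to 1.80, all called. In AAV9-Cardinal hearts Lox was at 1.99, 2.56, 3.27 and 3.11 CPM after sham surgery and at 4.65, 6.25, 7.78 and 6.81 CPM after TAC. These groups did not overlap either, and the log2 fold change was 1.23 ± 0.303 (edgeR adjusted p = 0.028). That call was kept in 10 of 16 fits with 1 mouse left out. Without AAV9-Cardinal TAC replicate 1 the log2 fold change was 1.36 (edgeR adjusted p = 0.019).

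Loxl3 encodes a lysyl oxidase with known roles in palate and spine development. It lies on the plus strand of chromosome 6 (GRCm38, chr6:83034173-83052562, ENSMUSG00000000693). It was at 2.74, 4.18, 5.14 and 4.50 CPM in AAV9-GFP sham hearts and at 6.43, 8.89, 6.26 and 7.48 CPM in AAV9-GFP TAC hearts. The log2 fold change was 0.81 ± 0.182 (edgeR adjusted p = 0.0062), the smallest of the family. In AAV9-Cardinal hearts it was at 4.70, 4.88, 3.46 and 4.02 CPM after sham surgery and at 5.93, 4.04, 5.82 and 6.03 CPM after TAC. These groups overlapped through TAC replicate 4, and the log2 fold change of 0.35 ± 0.185 did not pass the threshold (95% interval -0.042 to 0.75, edgeR adjusted p = 0.29). The last exons of Loxl3 overlap Htra2, a mitochondrial protease gene on the opposite strand, over 535 bases, which is 11.6% of the exon length of Loxl3. Whether strand was used in counting is not given in the sources used here. Htra2 changed the other way, with a log2 fold change of -0.48 in AAV9-GFP hearts (edgeR adjusted p = 0.00047).

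Loxl4 was close to the limit of detection. It lies on the minus strand of chromosome 19 (GRCm38, chr19:42593982-42612813, ENSMUSG00000025185), and no mouse had more than 21 counts. In AAV9-GFP sham hearts it had 7, 8, 12 and 8 counts (0.331, 0.384, 0.588 and 0.391 CPM), and in AAV9-GFP TAC hearts 20, 19, 15 and 21 counts (0.857, 0.797, 0.656 and 0.913 CPM). The groups did not overlap, and the log2 fold change was 0.92 ± 0.283 (edgeR adjusted p = 0.035). That call was kept in 10 of 16 fits with 1 mouse left out, and with DESeq2 the adjusted p was 0.095. In AAV9-Cardinal hearts Loxl4 had 13, 7, 8 and 8 counts after sham surgery and 20, 7, 16 and 12 after TAC. Here the mice overlapped, and the log2 fold change of 0.47 ± 0.293 did not pass the threshold (95% interval -0.15 to 1.10, edgeR adjusted p = 0.38). Without TAC replicate 1, which had the 20 counts, it was 0.265.

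**Figure D2:**
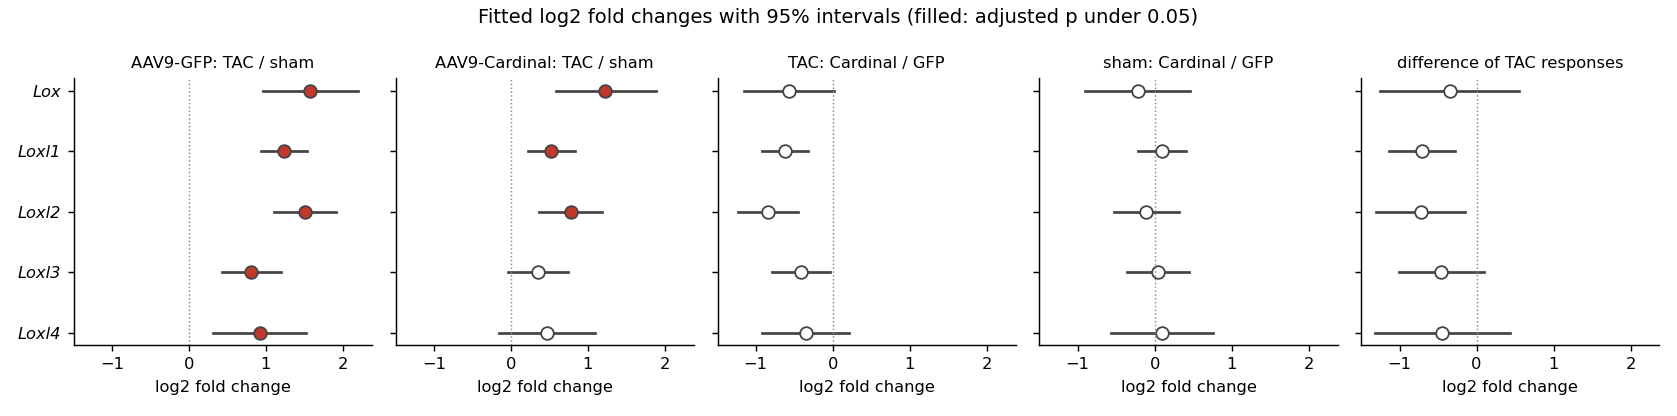
Fitted log2 fold changes (horizontal axes) of the 5 members in each comparison, with 95% intervals as lines. Filled points passed an adjusted p of 0.05. All 5 points are filled for TAC in AAV9-GFP hearts, 3 for TAC in AAV9-Cardinal hearts and 0 in the 3 other comparisons.

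The 3 calls in AAV9-Cardinal hearts depended on single mice. The number of members called fell to 0 without AAV9-Cardinal sham replicate 1, without AAV9-Cardinal sham replicate 2 or without AAV9-Cardinal TAC replicate 5. It fell to 1 without AAV9-Cardinal sham replicate 3 or 4 or AAV9-Cardinal TAC replicate 6, and to 1 when only the 8 mice of the comparison were fitted. In AAV9-GFP hearts, 4 or 5 members were called in every fit with 1 mouse left out.

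The comparison between the vectors in TAC hearts asks whether Cardinal altered the family under load. All 5 members had lower means in AAV9-Cardinal TAC than in AAV9-GFP TAC hearts, and 0 of the 5 passed the threshold with edgeR, where 0.101% of all genes did. Without adjustment, 3 had an edgeR p under 0.05, Loxl1, Loxl2 and Loxl3, as did 15% of all genes. DESeq2 called Loxl1 and Loxl2, the only 2 members to which it gave an adjusted p. It called 4.75% of the 9010 genes to which it gave one. Loxl1 was at 36.8 ± 5.77 CPM with AAV9-GFP and 24.0 ± 4.54 CPM with AAV9-Cardinal (SD, n = 4). Every AAV9-Cardinal mouse was below every AAV9-GFP mouse, and the log2 difference was -0.62 ± 0.139 (edgeR adjusted p = 0.076, DESeq2 adjusted p = 0.0027, exact permutation p = 0.029). Loxl3 also did not overlap, at 7.26 ± 1.21 and 5.46 ± 0.947 CPM, and its log2 difference was -0.41 ± 0.177 (edgeR adjusted p = 0.28). Non-overlapping groups with lower values under AAV9-Cardinal were found for 3.19% of all genes.

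Loxl2 had the largest difference of the family between the vectors, and 1 mouse decided its call. It was at 30.1 ± 3.57 CPM in AAV9-GFP TAC and 16.8 ± 5.95 CPM in AAV9-Cardinal TAC hearts, with an overlap of 25.6 against 24.9 CPM. The log2 difference was -0.83 ± 0.183 (edgeR adjusted p = 0.075, DESeq2 adjusted p = 0.0016). Without AAV9-Cardinal TAC replicate 1 it was -1.11 (edgeR adjusted p = 0.00047), and Loxl1 was then called too, at -0.70 (edgeR adjusted p = 0.024). Lox and Loxl4 overlapped widely between the vectors. The log2 difference of Lox was -0.57 (95% interval -1.15 to 0.010, edgeR adjusted p = 0.34). It rested largely on AAV9-GFP TAC replicate 7, without which it was -0.167 (edgeR adjusted p = 0.77). The log2 difference Loxl4 was -0.35 (95% interval -0.92 to 0.21, edgeR adjusted p = 0.58), and -0.564 without AAV9-Cardinal TAC replicate 1.

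The test of the difference between the 2 TAC responses gave 0 calls in the family with edgeR, against 0.0119% of all genes. DESeq2 gave no adjusted p for any of the 5 members here, so it could not call them. All 5 estimates were negative, the direction of a smaller TAC response with AAV9-Cardinal. Without adjustment, 10.2% of all genes and 2 members had a p under 0.05, Loxl1 with -0.71 ± 0.202 (edgeR adjusted p = 0.30) and Loxl2 with -0.73 ± 0.269 (edgeR adjusted p = 0.39). Without AAV9-Cardinal TAC replicate 1 the estimate for Loxl2 was -1.0 (edgeR adjusted p = 0.035). For Lox the difference was -0.35 with a 95% interval of -1.25 to 0.55. A larger, an equal and a smaller response of Lox all lay within this interval. This test uses the same mice as the comparisons above and is no separate evidence.

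In sham hearts the vectors gave 0 calls in the family with edgeR, where 0.0119% of all genes were called. DESeq2 also gave 0 calls, but it gave no adjusted p for Loxl4. At an unadjusted edgeR p under 0.05 there were 0 members, against 2.59% of all genes. The log2 differences were -0.22 for Lox (95% interval -0.90 to 0.46), 0.092 for Loxl1 (-0.22 to 0.40) and -0.11 for Loxl2 (-0.53 to 0.31). They were 0.048 for Loxl3 (-0.36 to 0.45) and 0.094 for Loxl4 (-0.57 to 0.76). Each of these intervals holds differences in both directions.

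Levels can be set between genes only per length of exon. On that scale Loxl1 was the most abundant family member in all 4 groups, at 4.74 CPM per kb in AAV9-GFP sham hearts, and it made up between 53.2% and 60.8% of the summed level of the family in every mouse. Loxl2 followed, 2.42-fold below Loxl1 in AAV9-GFP sham hearts and 2.01-fold below it in AAV9-GFP TAC hearts, with no overlap between the genes in any group. The length of Loxl2 includes the stretches shared with Gm21451, so its level is too low if shared reads were dropped or split. Its distance to Loxl1 and the shares of the summed level carry the same limit. Lox and Loxl3 were next and were not separated from each other beyond their spread except in AAV9-Cardinal sham hearts, where Loxl3 was 1.62-fold higher. Mean Loxl3 was the higher of the pair in sham hearts and mean Lox in TAC hearts of both vectors. Loxl4 was the lowest everywhere, 5.30-fold to 8.25-fold below the next gene.

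**Figure D3:**
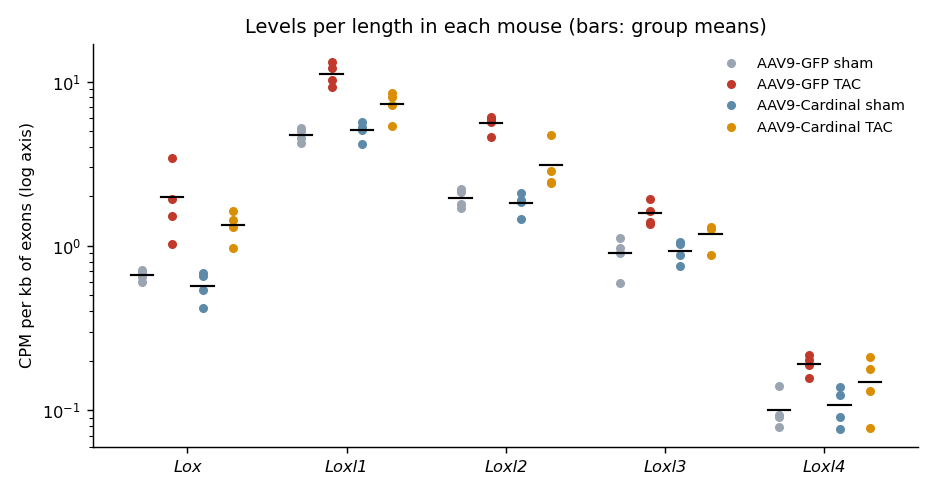
Level of each family member per length, in CPM per kb of exons on a log axis, for each mouse (points) with group means (bars). The order from Loxl1 to Loxl2 to the pair of Lox and Loxl3 to Loxl4 was seen in all 4 groups, and Loxl1 had a mean of 4.74 CPM per kb in AAV9-GFP sham hearts. Loxl2 was not corrected for sequence shared with Gm21451.

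The summed level of the 5 members was 8.37 ± 0.752 CPM per kb in AAV9-GFP sham and 20.5 ± 3.34 in AAV9-GFP TAC hearts (SD, n = 4). It was 8.50 ± 0.943 in AAV9-Cardinal sham and 13.1 ± 2.29 in AAV9-Cardinal TAC hearts. The lowest AAV9-GFP TAC mouse was at 16.9 and the highest AAV9-Cardinal TAC mouse at 15.7. The share of Loxl1 in this sum had a mean of 56.7% in AAV9-GFP sham and 54.6% in AAV9-GFP TAC hearts, and that of Loxl2 was 23.5% and 27.4%. Lox made up 5.52% to 14.0% of the sum in single AAV9-GFP TAC mice, a wider range than the 7.62% to 8.30% in AAV9-GFP sham mice.

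In some TAC mice, but not in all, Lox and Loxl2 stood toward opposite ends of their group. In AAV9-Cardinal TAC hearts, replicate 1 had the highest Loxl1, Loxl2 and Loxl4 of its group and the lowest Lox. The same mouse had 115 CPM of Postn, which encodes the matricellular protein periostin of activated fibroblasts, against 38.2 to 51.2 CPM in the other 3. In AAV9-GFP TAC hearts, replicate 1 had the lowest Lox, at 4.93 CPM, together with the second highest Loxl2, at 31.8 CPM. AAV9-GFP TAC replicate 7, in contrast, was the highest of its group for both genes. Over the 16 mice, with each group mean subtracted, Pearson's r of log2 CPM between Lox and Loxl2 was -0.0062. Between Lox and Loxl1 it was 0.466, and between Loxl1 and Loxl2 it was 0.575. On the same scale Loxl2 had an r of 0.753 with Col1a1 and 0.659 with Postn, while Lox had -0.314 and -0.164. These values describe 16 libraries whose genes share depth and composition, and they carry no test. AAV9-Cardinal TAC replicate 1 is included in them, and no r was computed without it.

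**Figure D4:**
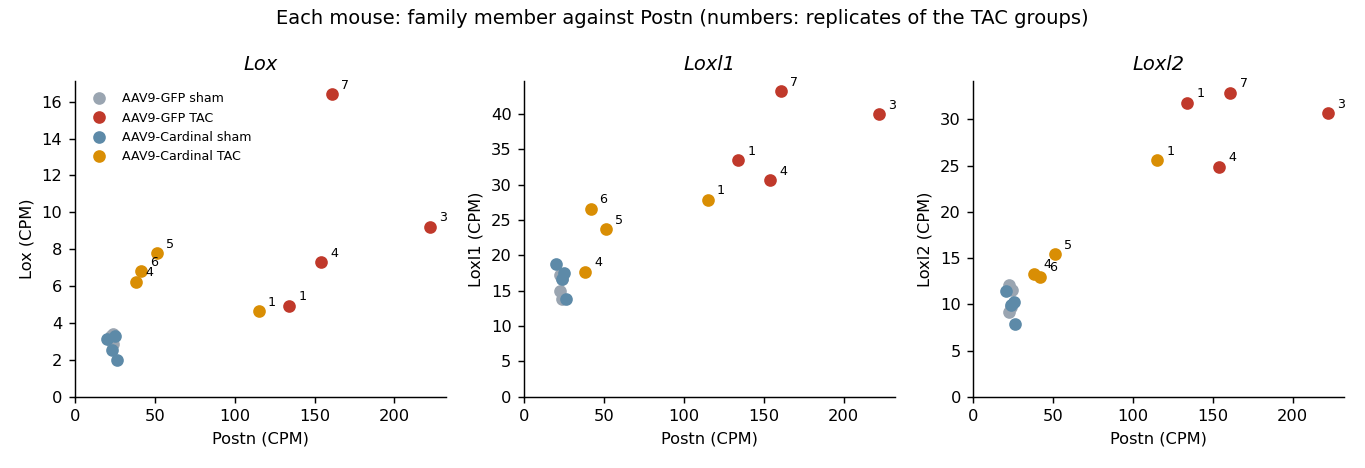
CPM of Lox, Loxl1 and Loxl2 (vertical axes) against CPM of Postn (horizontal axes) in each mouse, with replicate numbers beside the TAC mice. AAV9-Cardinal TAC replicate 1, at 115 CPM of Postn, is the highest of its group for Loxl1 and Loxl2 and the lowest for Lox.

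The genes whose log2 CPM followed each member most closely over the 16 mice differed from member to member. They were Rnd3 (r = 0.962), Medag (0.959) and Gpr153 (0.954) for Lox, and Des (0.968), Gm5388 (0.967) and Kdelr3 (0.959) for Loxl1. For Loxl2 they were the collagen gene Col6a2 (0.972), Pcolce (0.971), whose product enhances the trimming of procollagen, and Gm21451 (0.966), which shares sequence with Loxl2. For Loxl3 they were Rpl19-ps6 (0.923), Gm13054 (0.920) and Lrp8 (0.914). For Loxl4 they were Amot (0.926), Rtn4 (0.875) and Ankrd1 (0.871), a stress gene of cardiomyocytes. With group means subtracted, these r values lay between 0.731 and 0.897. The genes were picked from all tested genes by their r over the same 16 mice, so these values are no separate evidence and carry no test.

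The substrates of the family rose with it in AAV9-GFP hearts. Of 7 fibrillar collagen genes tested, 6 rose and 0 fell, with a median log2 fold change of 1.09. After TAC, 8.49% of all genes were called higher in AAV9-GFP hearts and 3.1% in AAV9-Cardinal hearts. Col3a1 went from 70.5 ± 8.94 to 198 ± 36.8 CPM (log2 fold change 1.49, edgeR adjusted p = 0.0028), and Col1a1 from 39.8 ± 2.00 to 109 ± 20.3 CPM (1.46, edgeR adjusted p = 0.00013). Col1a2 and Col5a1 had log2 fold changes of 1.04 and 1.09 (edgeR adjusted p = 0.00075 and 0.00012). Of 6 type IV collagen genes, which form the basement membrane network, 5 rose and 0 fell, among them Col4a1 from 218 ± 34.3 to 471 ± 61.4 CPM (1.11, edgeR adjusted p = 3.6e-05). Col4a2, Col4a5 and Col4a4 had log2 fold changes of 1.03, 0.40 and 0.67 (edgeR adjusted p = 2.7e-05, 0.022 and 0.024). In AAV9-Cardinal hearts 1 of the 7 fibrillar genes rose, Col5a2 with a log2 fold change of 0.91 (edgeR adjusted p = 0.0042), and 2 of the 6 type IV genes, Col4a1 with 0.72 (edgeR adjusted p = 0.0044) and Col4a2 with 0.60 (edgeR adjusted p = 0.0059). Without AAV9-Cardinal TAC replicate 1 these 3 were still called, where 3.77% of all genes were called higher.

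Of 12 genes of elastin and its assembly, 9 rose in AAV9-GFP TAC hearts, where 8.49% of all genes were called higher. Their median log2 fold change over the 12 was 0.81. Elastin itself, Eln, went from 17.2 ± 3.51 to 29.8 ± 8.77 CPM (0.80, edgeR adjusted p = 0.017). The fibrillin gene Fbn1 went from 30.1 ± 0.922 to 82.0 ± 16.2 CPM (1.45, edgeR adjusted p = 0.0002), and the microfibril-associated gene Mfap5 from 11.1 ± 1.42 to 45.2 ± 15.7 CPM (2.03, edgeR adjusted p = 4.2e-05). Fbln2, which encodes a fibulin, and Ltbp4, which encodes a binding protein of latent TGF-beta needed for elastic fibers, had log2 fold changes of 1.03 and 0.48 (edgeR adjusted p = 4e-05 and 0.0002). Efemp2, whose product tethers Lox to tropoelastin, rose as well, with a log2 fold change of 0.46 (edgeR adjusted p = 0.026). In AAV9-Cardinal hearts 4 of the 12 rose, Fbln2, Emilin1, Mfap4 and Mfap5, where 3.1% of all genes were called higher. Eln had a log2 fold change of 0.38 there (edgeR adjusted p = 0.32). Without AAV9-Cardinal TAC replicate 1, Mfap4 was no longer called (edgeR adjusted p = 0.061). Fbn2, at a mean of only 0.594 CPM in AAV9-Cardinal sham hearts, was then called lower.

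Genes whose products process the proenzymes, or help in it, were also measured, as RNA. Of 10 genes of proenzyme processing and its helpers, 7 rose in AAV9-GFP TAC hearts and 3 in AAV9-Cardinal TAC hearts, and 0 fell. Of all genes, 8.49% and 3.1% were called higher in these comparisons. Bmp1, the protease that releases the propeptide of Lox, went from 30.5 ± 1.54 to 37.3 ± 2.11 CPM (0.29, edgeR adjusted p = 0.0052). Larger log2 fold changes were found for Adamts2, a procollagen protease (1.06, edgeR adjusted p = 0.00029), and for Postn, which helps Bmp1 act on Lox (2.87, edgeR adjusted p = 2e-05). Fn1, the fibronectin gene, and Pcolce had 0.73 and 0.68 (edgeR adjusted p = 0.00085 and 0.00048). In AAV9-Cardinal hearts the 3 were Adamts2 (0.61, edgeR adjusted p = 0.031), Postn (1.37, edgeR adjusted p = 0.011) and Thbs1 (2.09, edgeR adjusted p = 0.049). Without AAV9-Cardinal TAC replicate 1, Adamts2 was no longer called (edgeR adjusted p = 0.053) and Postn had a log2 fold change of 0.88 (edgeR adjusted p = 0.0049). The change of Bmp1 was smaller than those of Adamts2 and Postn.

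Of all 16857 genes, 2934 were called in either direction after TAC in AAV9-GFP hearts and 1092 in AAV9-Cardinal hearts. Genes of copper supply and lysyl hydroxylation are set against these counts. Of 4 copper genes tested, 1 was called in any TAC comparison, the copper importer Slc31a1 in AAV9-Cardinal hearts (0.32, edgeR adjusted p = 0.020). Atp7a, the pump that loads copper into secreted enzymes, had a log2 fold change of 0.011 in AAV9-GFP hearts (edgeR adjusted p = 0.99). Of 6 genes of lysyl hydroxylation, which sets the kind of crosslink that can form, Plod3 rose in both vector groups (0.39 and 0.36, edgeR adjusted p = 0.012 and 0.041). P3h4 fell in both (-0.65 and -0.44, edgeR adjusted p = 0.00054 and 0.022). Plod2 was at 35.6 ± 2.26 and 30.9 ± 2.84 CPM in AAV9-GFP sham and TAC hearts (-0.20, edgeR adjusted p = 0.33).

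The list of TGF-beta and other upstream signals holds 12 genes, among them known inducers of Lox. Of these 12, 8 rose in AAV9-GFP TAC hearts and 1 in AAV9-Cardinal TAC hearts, Ccn2. Of all genes, 8.49% and 3.1% were called higher in these comparisons. Ccn2, a target of TGF-beta signaling, had log2 fold changes of 1.34 and 1.24 (edgeR adjusted p = 0.0024 and 0.014). The ligand gene Tgfb2 rose by 0.94 in AAV9-GFP hearts (edgeR adjusted p = 0.0032), and Hif1a, which encodes a transcription factor of the oxygen response, by 0.39 (edgeR adjusted p = 0.0061). Tgfb1 and the receptor gene Tgfbr2 rose by 0.41 and 0.32 (edgeR adjusted p = 0.022 and 0.016). Of 3 other crosslinking enzymes tested, Pxdn, a peroxidase that crosslinks type IV collagen, rose in AAV9-GFP hearts (0.32, edgeR adjusted p = 0.035). Tgm2, a transglutaminase gene, was at 229 ± 33.3 and 282 ± 37.6 CPM in AAV9-GFP sham and TAC hearts (0.30, edgeR adjusted p = 0.12). In AAV9-Cardinal sham and TAC hearts it was at 207 ± 34.3 and 281 ± 21.3 CPM (0.44, edgeR adjusted p = 0.052). Without AAV9-Cardinal TAC replicate 1, Tgm2 was called higher there, as were 3.77% of all genes. Between the vectors in TAC hearts, 0 of the 60 genes tested in these 8 lists passed the threshold with edgeR. An unadjusted edgeR p under 0.05 was found for 30, against 15% of all genes. DESeq2 called 16 of the 60, against 4.75% of all genes to which it gave an adjusted p, and a list gene without one could not be called. The 16 were all lower with AAV9-Cardinal, among them Col1a1, Fbn1, Bmp1 and Postn. The edgeR count turned on AAV9-Cardinal TAC replicate 1. Without this mouse, left out after its values were seen, 19 of the 60 were lower and 0 higher with AAV9-Cardinal, where 1.64% of all genes were called lower, among them Col1a1 (-1.14, edgeR adjusted p = 0.00016), Fbn1 (-1.14, edgeR adjusted p = 0.00034) and Postn (-1.94, edgeR adjusted p = 2e-05).

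**Figure D5:**
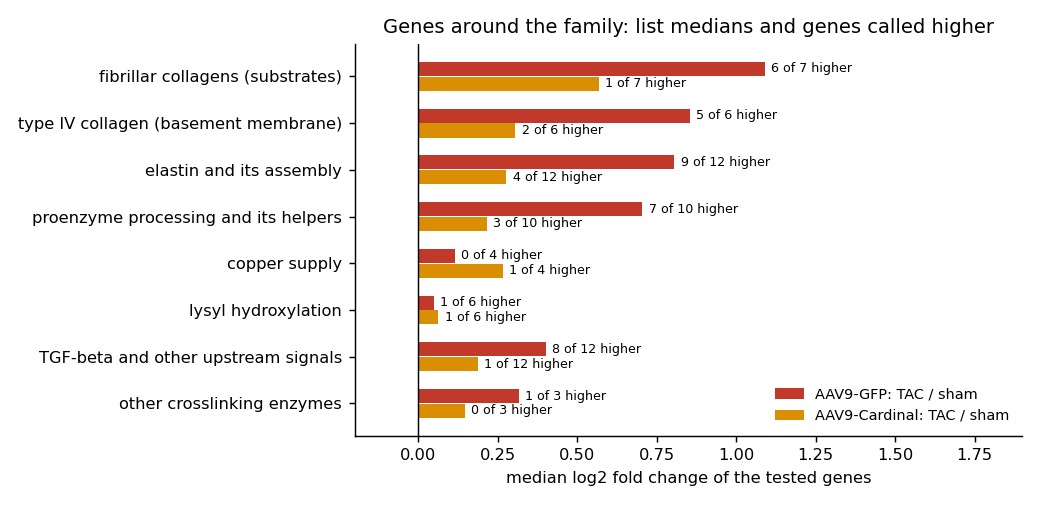
Median log2 fold change after TAC (horizontal axis) of the tested genes of 8 lists around the lysyl oxidases, for AAV9-GFP and AAV9-Cardinal hearts, with the number of genes called higher. The fibrillar collagen list has medians of 1.09 and 0.57, and the lysyl hydroxylation list 0.049 and 0.063.

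The ratio of enzyme to substrate was taken within each mouse from counts. It was the log2 of a member's counts, with 0.5 added, over the summed counts of the fibrillar collagens. The fibrillar collagens summed to 218 ± 17.2 CPM in AAV9-GFP sham and 535 ± 69.6 in AAV9-GFP TAC hearts, and to 216 ± 13.2 and 341 ± 150 CPM in the AAV9-Cardinal groups. With all mice included, no member changed against this sum beyond the spread between mice. In AAV9-GFP hearts the log2 ratio of Loxl1 changed by -0.066 (exact permutation p = 0.69) and that of Loxl2 by 0.21 (exact permutation p = 0.23). The largest change there was -0.46 for Loxl3 (exact permutation p = 0.086). In AAV9-Cardinal hearts the ratio of Lox changed by 0.64 (exact permutation p = 0.20), and without AAV9-Cardinal TAC replicate 1 by 1.06 (exact permutation p = 0.029). That mouse had the lowest Lox and the highest Col1a1 and Col3a1 of its group, and it was left out after its values were seen. The p without it is the smallest that the remaining mice can give, and these p-values are not adjusted. The second value is therefore no separate evidence of a change.

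The summed level of general fibroblast markers overlapped between all 4 groups. The 7 markers summed to 973 to 1130 CPM in AAV9-GFP sham, 943 to 1190 in AAV9-GFP TAC, 978 to 1020 in AAV9-Cardinal sham and 885 to 1080 in AAV9-Cardinal TAC hearts. Most of the sum came from Gsn and Dcn, with means of 610 and 306 CPM in AAV9-GFP sham hearts. Of the 7, 2 rose in AAV9-GFP TAC hearts, Lum and Col15a1, where 8.49% of all genes were called higher. Against this sum the log2 ratio of all 5 members rose in AAV9-GFP hearts, from 0.81 for Loxl3 to 1.48 for Loxl2, with no overlap and an exact permutation p of 0.029 each, the smallest that 4 mice against 4 can give. Adjusted over the 30 ratio tests these p-values were 0.097. By construction this ratio rises for members that rose, since its denominator did not rise after TAC, so it is no separate evidence. In AAV9-Cardinal hearts Lox, Loxl1 and Loxl2 did not overlap on this ratio either, with changes of 1.29, 0.58 and 0.80.

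Markers of activated fibroblasts and of cardiomyocytes did move. The activated fibroblast markers summed to 31.8 to 35.2 CPM in AAV9-GFP sham and 164 to 280 in AAV9-GFP TAC hearts, and to 28.0 to 37.5 and 52.5 to 137 CPM in the AAV9-Cardinal groups, and Cthrc1 was at 0 in all AAV9-GFP sham mice. Of 4 tested, 3 rose in AAV9-GFP TAC hearts and 2 in AAV9-Cardinal TAC hearts. Of all 16857 genes, 8.49% and 3.1% were called higher in these comparisons, and 1503 and 570 genes were called lower. Thbs4 was lower with AAV9-Cardinal than with AAV9-GFP after TAC (log2 difference -1.67, edgeR adjusted p = 0.043), and without AAV9-Cardinal TAC replicate 1 the difference was -2.05 (edgeR adjusted p = 0.00084). The cardiomyocyte markers summed to 37500 to 39000 CPM in AAV9-GFP sham and 27700 to 33700 in AAV9-GFP TAC hearts, where 5 of 7 fell, and to 35900 to 40000 and 33400 to 37500 CPM in the AAV9-Cardinal groups, where 0 fell and 1 rose. Summed smooth muscle markers were at 207 to 397 CPM in AAV9-GFP sham (median 210) and 173 to 200 in AAV9-GFP TAC hearts. Within this sum Acta2 was at 88.1 ± 87.5 CPM in AAV9-GFP sham hearts. Of the 5 smooth muscle markers, Smtn fell in AAV9-GFP TAC hearts (-0.46, edgeR adjusted p = 0.00041) and Cnn1 rose (1.18, edgeR adjusted p = 0.029). Endothelial markers were at 424 to 517 and 499 to 592 CPM in these 2 groups, and macrophage markers at 48.6 to 61.2 and 59.4 to 74.4. Summed pericyte markers were lower after TAC with no overlap, at 885 to 965 and 796 to 844 CPM in the AAV9-GFP groups and at 892 to 927 and 759 to 849 CPM in the AAV9-Cardinal groups. Of these 4 markers, Abcc9 fell in AAV9-GFP TAC hearts (-0.67, edgeR adjusted p = 1.3e-05), a gene that cardiomyocytes also express, and Pdgfrb rose (0.55, edgeR adjusted p = 0.0011). The part of these cell types in the changes of the lysyl oxidases was not tested.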

How the data were processed

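The deposited table holds whole numbers for each Ensembl gene, used as unnormalized read counts, 1 column a mouse, made by the authors from poly(A)-selected RNA read as single 50-base reads. The submitters' processing notes name FastQC, HISAT2 2.1.0, edgeR 3.26.1 and GRCm38. The counting program, annotation, use of strand and treatment of multiply mapped reads are not given in the sources used here. Of 55573 genes, 55480 were named with GENCODE M21, and 183 had exactly 1 count in all 16 mice. Whether the values are tallied reads or were derived from coverage is not given either, which limits low counts such as those of Loxl4.

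Counts were analysed with edgeR 4.0.16 in R 4.3.3 (TMM, expression filter, quasi-likelihood fit of all 16 mice, contrasts, Benjamini-Hochberg adjustment over 16857 genes, threshold 0.05). SEs and 95% intervals came from that fit, and log2 CPM used a prior count of 2. Single values were compared by exact two-sided permutation (70 labelings, smallest p 0.029). Intervals and the floor of 3 counts cover counting and mouse-to-mouse error only. The labels name separate mice as replicates. Replicates of a group differed by more than sampling noise (chi-square per degree of freedom 5.49 to 16.4).

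Members and lists were chosen with earlier results of these data known. Named were all 5 members, list genes called in any comparison (those with the highest means, and others the account needed), the 3 genes most correlated with each member, and overlapping genes. Alternatives were DESeq2 1.42.0, other filters and scalings, subsets of mice, a block, a GC offset and each mouse left out. In simulated TAC against sham data for AAV9-GFP hearts (16649 genes tested, 200 changed), 76% of 2-fold and 51% of 1.5-fold changes were recovered with 3 false calls.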

Additional observations from a re-analysis of the deposited data

Results flagged for a closer look

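Loxl3 in AAV9-Cardinal TAC replicate 4, at 4.04 CPM, stood apart from the other 3 mice of its group, which were at 5.82 to 6.03 CPM. The gap was 0.894 of the group's range, above Dixon's critical value for 4 mice. It was the only such value among 20 groups of 4 checked over the 5 members, and chance gives about 1. The same mouse had the lowest Loxl1 and Loxl4 of its group, at 17.7 and 0.329 CPM.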

How the results depend on the processing

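Of 239 recomputed log2 fold changes of single members under alternatives other than leaving out a mouse, 228 kept their direction and side of the threshold. The 228 include DESeq2 fits without an adjusted p, for which only the direction could be compared. Loxl4 after TAC in AAV9-Cardinal hearts is an example. The number of members called after TAC in AAV9-Cardinal hearts was 3, and it was 1 with only the 8 mice compared and 1 with mouse number as a replicate block. Between the vectors in TAC hearts DESeq2 called 2 where edgeR called 0, and these 2 were the only members with a DESeq2 adjusted p there. The block turned the difference in TAC response of Lox to 0.0017. Whether the mouse numbers pair the mice is not settled. Of 16 same-number pairs, 4 correlated over 0.1, and of 80 other pairs between groups, 4 did. The median r was 0.0544 and -0.013, and 5 of 13 mice with a partner correlated best with their own number. The block took the count in AAV9-GFP hearts from 5 to 4 (Loxl4 lost).

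With 1 mouse left out, the count called ranged from 0 to 3 for TAC in AAV9-Cardinal hearts, from 0 to 2 between the vectors in TAC hearts and from 0 to 1 for the difference in response. The sham difference between vectors ranged from -0.107 to 0.169 for Loxl3 and from -0.0725 to 0.29 for Loxl4, and the difference in TAC response of Lox from -0.565 to 0.0513 (positive without AAV9-GFP TAC replicate 7). Ratios to the fibrillar collagens after TAC in AAV9-GFP hearts ranged from -0.208 to 0.439 for Lox and from -0.189 to 0.00272 for Loxl1. In AAV9-Cardinal hearts that of Loxl1 ranged from -0.196 to 0.126, and between the vectors in TAC hearts Lox ranged from -0.0204 to 0.688 and Loxl1 from -0.0205 to 0.292.

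Fibroblast markers as the denominator turned the ratios of Loxl1, Loxl3 and Loxl4 to 1.21, 0.811 and 0.889 in AAV9-GFP hearts and to 0.581, 0.42 and 0.463 in AAV9-Cardinal hearts. Between the vectors in TAC hearts they turned those of Lox, Loxl1, Loxl3 and Loxl4 to -0.28, -0.452, -0.241 and -0.247. By construction this follows from a denominator that did not rise after TAC. The GC offset gave a Loxl1 difference between the vectors in TAC hearts of -0.53 (edgeR adjusted p = 0.11). Other causes were not tested. Depth limits Loxl4, which had 7 to 21 counts, and Loxl4 was not tested when at least 1 CPM in 4 mice was asked for.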
